A study of Mus musculus with 6 samples.

Results

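DNA replication genes were compared between neural progenitor cells made from mouse embryonic stem cells of 2 lines, one labelled flox/flox for Dmrta2, which served as the control, and one labelled -/-. The set holds 49 genes chosen by name, from the origin recognition complex to the enzymes that make DNA precursors, and was matched to the table by Ensembl identifier through GENCODE release M21. All 49 were found among the 48526 rows of the table, and all 49 had enough reads to be tested. The rule that picked them uses gene names and no measured value, though it was written with earlier results of these data known. In the flox/flox line recombinase sites flank part of Dmrta2, which encodes a Dmrt family transcription factor found in progenitors of the dorsal telencephalon. The series is described by its submitters as a Dmrta2 knockout. Libraries carry the letters A, B and C in the table, and the 3 values of a line are always given in that order. Each group is 1 line with 3 libraries described as biological replicates, so genotype and line cannot be told apart, and p-values measure the spread between samples of a line.

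Both lines were differentiated in the same N2B27 medium. It held the BMP receptor inhibitor LDN193189 (100 nM) and the activin and TGF-beta receptor inhibitor SB431542 (10 µM) until day 4, XAV939 (1 µM), which blocks Wnt signalling, until day 6, and the Hedgehog pathway inhibitor cyclopamine (1 µM) from day 2 to day 10. The cells were replated on day 5, and RNA was taken on day 8. The study set out to learn what the loss of Dmrta2 does to these cells, and the replication genes bear on how much of the culture was still cycling. In bulk RNA, fewer cycling cells and less RNA per cycling cell cannot be told apart.

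Before a cell can copy its DNA, the origin recognition complex (ORC), Cdc6 and Cdt1 load the ring-shaped MCM helicase onto origins, a step called licensing. On entry into S phase, Cdc45 and the GINS complex join the helicase and set it moving, polymerase alpha-primase lays down primers, and polymerases delta and epsilon extend them on the PCNA clamp, which the RFC complex loads. Many of these genes are switched on together at the end of G1 by E2F transcription factors, and neurons leave the cell cycle as they form.

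The letters that E2F factors are known to bind were present in the promoters of many of these genes. Promoters were taken from RefSeq on GRCm38.p6, where 40 of the 49 genes matched, with 48 promoters. Each is a window of 300 bases, from 250 before the start listed there to 50 after it. The E2F letters searched were TTTGGCGC, TTTCGCGC, TTTCCCGC and TTTGCCGC, on both strands. They were found in 16 of the 48 promoters (33.3%), compared with 744 of all 32851 promoters of that length (2.26%). CCAAT, the letters bound by the factor NF-Y, was searched on both strands too and was found in 26 of the 48 (54.2%) and in 37.4% of all promoters. Both kinds of letters stood together in 9 of the 48, or 18.8%, and in 0.962% of all promoters. A match is a description of the sequence and not a measured binding site.

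The promoters below are shown because they span the set, from a licensing gene (Orc1) and MCM genes (Mcm5, Mcm6), none of which passed the test, to a gene that rose (Clspn) and the gene with the largest rise (Pold2). They are written 5′ to 3′ on the strand of the gene, in lower case, with E2F letters and CCAAT (or its complement ATTGG) in capitals. In Mcm5, and at the first site in Mcm6, E2F matches on opposite strands overlap. Of the 2 Pold2 promoters in the table, the one at the gene's annotated start is shown, and it holds no E2F letters and CCAAT letters at 3 places.
Orc1 promoter, GRCm38.p6 chr4:108579204-108579503, plus strand: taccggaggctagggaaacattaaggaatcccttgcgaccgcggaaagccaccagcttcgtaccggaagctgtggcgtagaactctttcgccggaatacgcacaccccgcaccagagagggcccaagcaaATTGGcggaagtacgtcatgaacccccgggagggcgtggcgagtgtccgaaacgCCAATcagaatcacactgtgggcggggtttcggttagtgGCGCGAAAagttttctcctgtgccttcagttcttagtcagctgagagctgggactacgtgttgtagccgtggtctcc
Mcm5 promoter, GRCm38.p6 chr8:75109259-75109558, plus strand: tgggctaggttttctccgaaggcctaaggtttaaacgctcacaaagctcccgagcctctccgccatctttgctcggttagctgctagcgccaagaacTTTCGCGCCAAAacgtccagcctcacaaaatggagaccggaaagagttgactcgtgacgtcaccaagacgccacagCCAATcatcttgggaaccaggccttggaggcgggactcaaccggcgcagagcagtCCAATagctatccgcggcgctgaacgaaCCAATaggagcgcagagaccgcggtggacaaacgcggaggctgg
Mcm6 promoter, GRCm38.p6 chr1:128359656-128359955, minus strand: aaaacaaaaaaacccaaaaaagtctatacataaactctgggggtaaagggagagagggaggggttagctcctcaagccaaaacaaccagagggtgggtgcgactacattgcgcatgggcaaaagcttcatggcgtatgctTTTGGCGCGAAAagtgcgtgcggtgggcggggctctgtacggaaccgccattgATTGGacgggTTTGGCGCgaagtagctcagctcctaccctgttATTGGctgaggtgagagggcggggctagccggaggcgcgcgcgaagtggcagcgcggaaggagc
Clspn promoter, GRCm38.p6 chr4:126556730-126557029, plus strand: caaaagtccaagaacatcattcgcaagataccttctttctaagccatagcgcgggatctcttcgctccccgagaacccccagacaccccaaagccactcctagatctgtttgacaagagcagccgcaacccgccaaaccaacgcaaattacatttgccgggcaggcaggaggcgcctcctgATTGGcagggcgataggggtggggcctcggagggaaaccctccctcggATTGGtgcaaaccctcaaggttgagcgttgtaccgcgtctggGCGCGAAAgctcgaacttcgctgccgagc
Pold2 promoter, GRCm38.p6 chr11:5878207-5878506, minus strand: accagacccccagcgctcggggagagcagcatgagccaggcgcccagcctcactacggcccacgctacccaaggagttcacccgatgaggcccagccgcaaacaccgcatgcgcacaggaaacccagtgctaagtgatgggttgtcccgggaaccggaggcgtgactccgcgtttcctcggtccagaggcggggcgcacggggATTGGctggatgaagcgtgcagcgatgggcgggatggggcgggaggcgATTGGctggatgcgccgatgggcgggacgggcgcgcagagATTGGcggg

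Most of the replication machinery changed little between the lines. Of the 49 genes, 7 were higher and 2 lower in the libraries labelled -/- at an adjusted p under 0.05 (edgeR's quasi-likelihood test, Benjamini-Hochberg over all 20549 genes tested), and the median log2 difference was 0.04. Over all tested genes 35.3% passed, 17.9% higher and 17.4% lower, with a median of 0.00. The members' 14.3% higher thus lay somewhat below the background, with 4 of the 7 on chromosome 11, and their 4.08% lower was further below it. The members are well expressed, and among the 11830 tested genes averaging 10 CPM or more (counts scaled to a common library size with TMM factors) the shares were 21.3% and 18.7%. The values of the lines did not overlap for 10 members that were higher and 7 that were lower, which 25.5% and 25.4% of all tested genes showed in each direction. The log2 differences of the 40 genes that did not pass ran from -0.28 to 0.25, and for 38 of the 40 the 95% interval lay inside 0.5 on either side of 0. The outermost bounds were -0.58 for Ccne1 and 0.47 for Prim2.

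The genes that rose were Cdc6, Pold2, Rpa1 and Tk1, all on chromosome 11, and Clspn, E2f1 and Ccne2 on other chromosomes, while Orc2 and Rrm1 fell. All 4 members on chromosome 11 rose. Of the 958 tested genes there that averaged 10 CPM or more, 77.6% were higher and 4.38% lower, so a rise of these 4 is near what the chromosome as a whole showed, and Pold2 alone passed against the chromosome's median shift. Of the 45 members on other chromosomes 3 rose and 2 fell, where 16.3% and 20% of the tested genes off chromosome 11 at that level did. The calls for Cdc6, Pold2, Rpa1 and Orc2 held when any single library was left out. The call for Clspn was lost when any of 3 libraries was left out, those for Rrm1, Ccne2 and E2f1 with any of 4, and that for Tk1 with any of 5, as given for each gene. Leaving out flox/flox A, flox/flox B or -/- B each left 3 members higher and 1 lower, and leaving out -/- A gave 5 and 4. In pairs of libraries that share a column letter, used as a block, 7 rose and 4 fell, the additions being Gmnn and Mcm4.

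**Figure D1:**
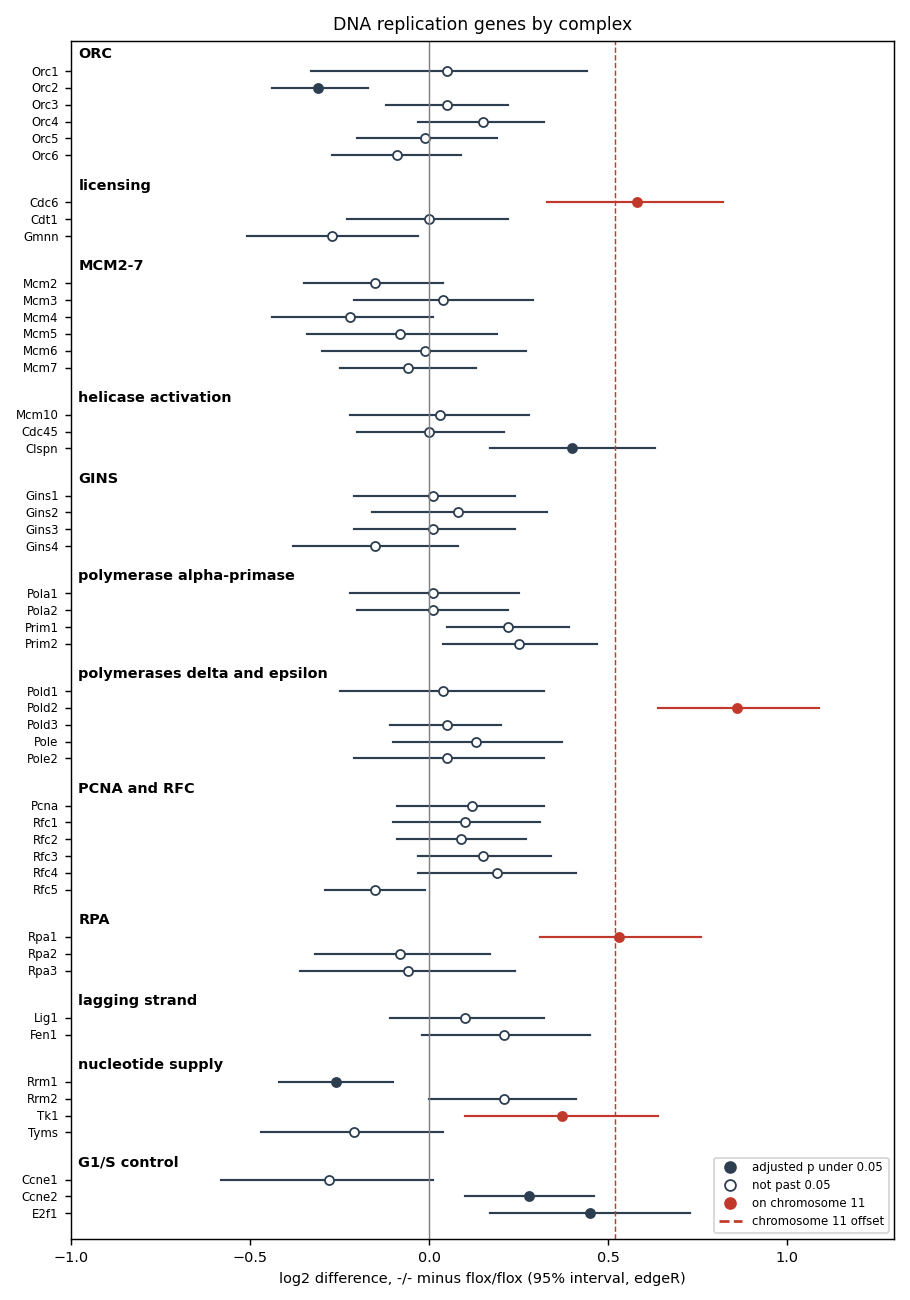
Log2 difference of each of the 49 replication genes, libraries labelled -/- minus flox/flox, with its 95% interval, grouped by complex. Filled points passed an adjusted p of 0.05, red points lie on chromosome 11, and the dashed line is the chromosome 11 offset of 0.52. The red points lie from 0.37 to 0.86, and the points off chromosome 11 lie between -0.31 and 0.45.

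Total counts per library ran from 24565560 to 39646793, so 1 CPM stood for at least 25.1 reads. Dmrta2 itself did not check the labels, since its count was higher in the libraries labelled -/- (421 ± 16.1 CPM) than in flox/flox (79.9 ± 5.09 CPM, SD, n = 3) and covers the whole gene, including any part outside the deleted one. Directions are therefore given for the libraries as labelled. Neural progenitor markers were present in both groups, with Sox2 at 235 ± 3.79 CPM in flox/flox and 181 ± 4.13 CPM in the libraries labelled -/- (SD, n = 3), and Pax6 at 108 ± 8.96 and 162 ± 0.381 CPM. Of the 12 progenitor markers 6 rose, among them Notch1 (2.17-fold), and 5 fell, among them Sox2, Hes1 and Vim. The sum of all 12 was 4240 to 4880 CPM in flox/flox and 4070 to 4420 CPM in the libraries labelled -/-. Vim was the largest part of this sum and went from 1980 ± 224 to 1490 ± 128 CPM (SD, n = 3). Taken gene by gene, the median log2 difference of the 12 was 0.25. Their average log2 level, set against the control mean, was 0.24, 0.22 and 0.19 for -/- A, B and C. The control libraries stood lower, at -0.12, 0.08 and 0.04. The call for Hes1 was lost without -/- B (adjusted p = 0.0505, edgeR) and that for Vim without flox/flox B (0.0684) or -/- B (0.0622). Of 15 genes that mark postmitotic neurons 14 rose, and their summed level was 1900 to 2970 CPM in flox/flox and 3590 to 5910 CPM in the libraries labelled -/-, and none of these or the following markers was at 0 in all libraries. Of 7 tested pluripotency genes 4 fell and 0 rose, and their sum was 106 to 114 CPM against 62.8 to 87.7 CPM. Of 6 tested neural crest genes 3 rose and 2 fell (sums of 62.0 to 71.7 and 71.9 to 130 CPM), with Sox10 under 1 CPM in both groups. Of 9 tested mesoderm and endoderm genes 3 rose and 2 fell (90.4 to 135 and 135 to 159 CPM), and of 7 tested glial genes 1 rose and 0 fell (93.5 to 113 and 115 to 135 CPM).

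The library labelled -/- C stood apart from the other libraries of its line in these genes. It had the lowest level of the 3 libraries labelled -/- for 44 of the 49 members (89.8%), while it was the lowest of them for 42.5% of the 11830 tested genes of at least 10 CPM. The mean log2 level of the members, set against the control mean, stood at -0.04, 0.00 and 0.05 for flox/flox and 0.17, 0.11 and -0.09 in -/-. The summed level of the 49 genes was 3710, 3800 and 3920 CPM in flox/flox and 4250, 4020 and 3490 CPM in -/-. The libraries labelled -/- A and B were thus above every flox/flox library and -/- C was below them all. Neuron markers had their highest mean log2 level in -/- C (1.58, against 0.88 and 1.02 in -/- A and B), and among the flox/flox libraries in C (0.37, against -0.32 and -0.05), the control library where the replication genes were highest. The part of the neuron markers in these values was not tested. Without -/- C, 10 members rose and 2 fell, with Prim1, Prim2, Lig1 and Fen1 added and E2f1 lost.

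**Figure D2:**
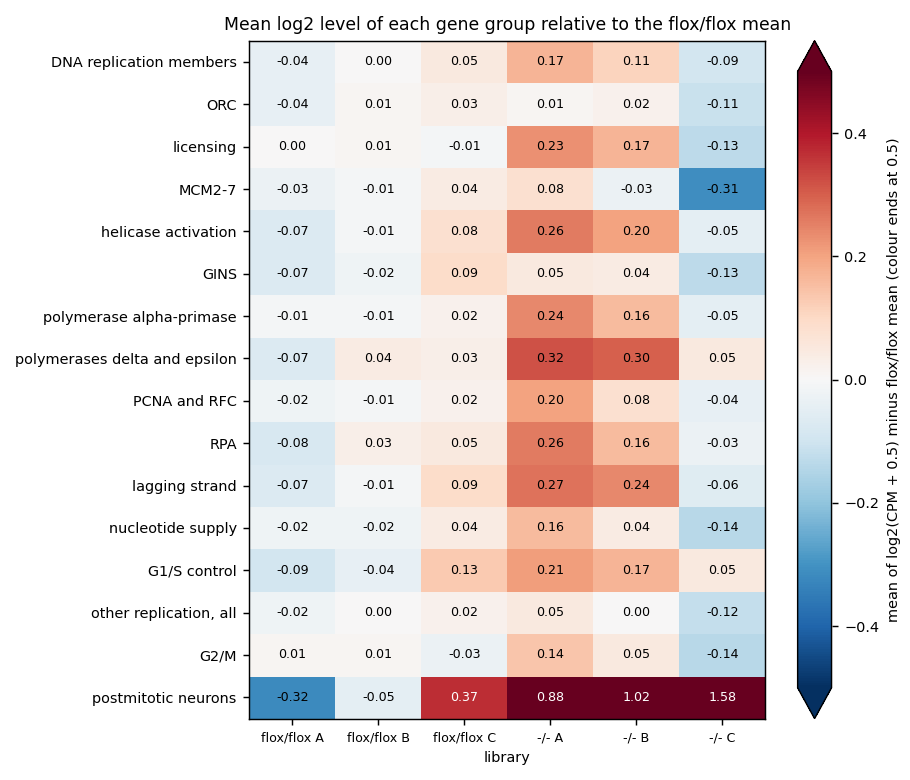
Mean of log2(CPM + 0.5) minus the flox/flox mean in each of the 6 libraries, for all replication members, for each complex, and for the lists of other replication genes, G2/M genes and neuron markers; colours end at 0.5 on either side of 0. Replication groups are lowest of the -/- libraries in -/- C, where MCM2-7 stands at -0.31, and neuron markers are highest there, at 1.58.

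ORC marks origins, and of its 6 subunit genes 1 fell and 0 rose. Orc2 (GRCm38 chromosome 1, 58462771 to 58505109, minus strand) measured 62.8, 67.1 and 67.4 CPM in flox/flox and 54.1, 53.8 and 51.4 CPM in -/-. The groups did not overlap. The difference was -0.31 ± 0.06 (log2, SE), with an adjusted p of 0.00612 in edgeR. Exons of other genes, chiefly Nif3l1, cover 29.8% of the exonic bases of Orc2. The library kit keeps strand, and whether the counting used it is not stated. The log2 ratio of Orc2 to the mean of the other 5 subunits, per kilobase, was between 0.97 and 1.02 in flox/flox and between 0.64 and 0.72 in the libraries labelled -/-.

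None of the other ORC genes passed, with log2 differences from -0.09 (Orc6) to 0.15 (Orc4), and the groups overlapped for all 5. Orc1, the subunit whose level is known to follow the cell cycle, was at 17.1, 17.2 and 20 CPM in flox/flox and 21.8, 20.4 and 14.1 CPM in -/-. It therefore varied more within the line labelled -/- than between the lines. Per kilobase of exon, the flox/flox mean was 19.7 ± 0.836 for Orc6, 17.1 ± 0.665 for Orc2, 9.92 for Orc3, 7.16 for Orc4, 6.10 for Orc5 and 5.21 ± 0.470 for Orc1 (CPM per kilobase, SD, n = 3). The order depends on the length used, since per kilobase of the longest transcript Orc3 (19.6) stood above Orc2 (18.5), while Orc6 (33.2) stayed highest and Orc1 (6.01) lowest.

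Among the licensing genes, the loader Cdc6 rose, and neither Cdt1, its partner, nor Gmnn, which encodes the Cdt1 inhibitor geminin, passed the test. Cdc6 (chromosome 11, 98907801 to 98923940, plus strand) stood at 31.9, 33.9 and 30.8 CPM in flox/flox and 51.4, 51.9 and 40.7 CPM in -/-. Every library labelled -/- was above every flox/flox library, with -/- C nearest to them. The difference was 0.58 ± 0.10 (log2, SE), or 1.49-fold (adjusted p = 0.00509, edgeR). Against the chromosome 11 offset of 0.52, which is the median of the tested genes of that chromosome minus that of all others, the difference was 0.06 (adjusted p = 0.691, edgeR with the offset).

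Reads of Cdc6 may be shared with a processed pseudogene on chromosome X, Gm9430, which matches 1260 bases of it at 95.2% identity and stood at 13.4 to 14.4 CPM in flox/flox and 16.2 to 23.0 CPM in the libraries labelled -/-. With these reads added, the Cdc6 difference was 0.57 (adjusted p = 0.00661, edgeR). Cdt1 was at 57.3, 58.6 and 58.6 CPM in flox/flox and at 63.6, 61.1 and 49.5 CPM in -/-, so the flox/flox values lay inside the range of the other line. Gmnn was at 34.2, 32.2 and 34.2 CPM in flox/flox and at 31.3, 28.1 and 23.8 CPM in -/-. Its groups did not overlap, but the difference of -0.27 ± 0.10 did not pass (adjusted p = 0.0783, edgeR), while it did with column letters blocked (0.0452) and without -/- A (0.0326).

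The 6 genes of the MCM2-7 helicase, which unwinds DNA at the fork, had no member past the threshold, and 0 of the 6 had an unadjusted p under 0.05 in edgeR. DESeq2 and limma-voom also called none of them. Their log2 differences ran from -0.22 (Mcm4) to 0.04 (Mcm3), with a median of -0.07, and the 95% intervals of all 6 lay between -0.44 and 0.29. Mcm4 measured 217, 210 and 210 CPM in flox/flox and 204, 189 and 155 CPM in -/-. Mcm2 measured 257, 251 and 249 CPM and 248, 234 and 199 CPM. For both genes the groups did not overlap, and over all tested genes 25.4% were lower without overlap. With the column letter as a block Mcm4 passed (adjusted p = 0.0487, edgeR), as it did without -/- A (0.0487).

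Mcm6 spread widely within the line labelled -/-, at 199, 177 and 138 CPM, around flox/flox values of 174, 170 and 173 CPM. Mcm3 and Mcm5 had the same order of libraries, with 161 and 148 CPM in -/- C against 216 and 200 CPM in -/- A. Mcm7 ran from 132 to 155 CPM in flox/flox and from 128 to 148 CPM in the libraries labelled -/-. Per kilobase of exon the 6 subunits lay in flox/flox between 32.4 ± 2.57 (Mcm7) and 59.1 ± 1.17 (Mcm4) CPM per kilobase (SD, n = 3), and per kilobase of the longest transcript between 39.7 (Mcm6) and 72.2 (Mcm2). With both lengths they were above every ORC gene. Mcm7 may share reads with the processed pseudogene Gm5487, which matches 2157 of its bases at 97.7% identity.

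Of the factors that activate the helicase, Clspn rose, while Mcm10 and Cdc45 stood near the control level. Clspn encodes claspin, which travels with the fork and passes the stress signal of the kinase ATR to Chk1. It measured 52.3, 57.0 and 60.4 CPM in flox/flox and 81.5, 77.5 and 64.9 CPM in -/-. The groups did not overlap, although -/- C was close to flox/flox C. Clspn was 1.32-fold higher, a log2 difference of 0.40 ± 0.10 (SE) (adjusted p = 0.0171, edgeR). It was 0.0542 without flox/flox A, 0.0593 without flox/flox B and 0.0615 without -/- B. The log2 ratio of Clspn to the mean of Mcm10 and Cdc45, per kilobase, was -0.08, 0.02 and 0.02 in flox/flox and 0.38, 0.37 and 0.37 in -/-, so that -/- C did not stand apart on this scale.

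Mcm10, which helps start the helicase, was at 58.2 to 61.0 CPM in flox/flox and 51.1 to 68.7 CPM in the libraries labelled -/-. Cdc45, the helicase cofactor, was at 26.5 to 30.6 and 25.9 to 29.8 CPM, with a log2 difference of 0.00 and a 95% interval from -0.20 to 0.21. The GINS genes, which complete the active helicase, had log2 differences between -0.15 (Gins4) and 0.08 (Gins2), and 0 of 4 passed or had an unadjusted p under 0.05 in edgeR. Gins2 spanned 66.3 to 90.2 CPM in flox/flox, a wider range than the 80.7 to 83.7 CPM of the libraries labelled -/-. Of the exonic bases of Gins2, 67.3% lie under exons of Gse1, so the level of Gins2 is uncertain. In flox/flox, Gins2 was at 66.3, 75.6 and 90.2 CPM and Gse1 at 107, 123 and 148 CPM, in the same order of libraries. In -/-, Gse1 was at 116, 123 and 134 CPM. Reads may have been counted for both genes, which was not tested.

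Polymerase alpha-primase makes the RNA-DNA primers, and 0 of its 4 genes passed. The primase subunits Prim1 and Prim2 were nevertheless higher in every library labelled -/- than in any flox/flox library, as were 25.5% of all tested genes. Prim1 measured 34.7, 35.6 and 38.6 CPM in flox/flox and 45.0, 41.1 and 40.4 CPM in -/-, a difference of 0.22 ± 0.07 (adjusted p = 0.0536, edgeR). Prim2 measured 28.9, 27.3 and 28.4 CPM and 36.1, 35.4 and 29.2 CPM, a difference of 0.25 ± 0.09 (adjusted p = 0.0711, edgeR). Both passed without -/- C (0.0470 and 0.00766) and when scaling factors were computed without chromosome 11 (0.0361 and 0.0492), and Prim1 also without flox/flox C (0.0406). The polymerase subunits Pola1 and Pola2 each had a log2 difference of 0.01, with 95% intervals from -0.22 to 0.25 and from -0.20 to 0.22.

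Pold2, the regulatory subunit of the lagging-strand polymerase delta, showed the largest rise of the set. Pold2 (chromosome 11, 5872180 to 5878292, minus strand) measured 48.3, 45.5 and 47.4 CPM in flox/flox and 95.6, 87.1 and 74.2 CPM in -/-. The groups were far apart relative to the spread within either line. The difference was 0.86 ± 0.10 (log2, SE), or 1.82-fold (adjusted p = 0.000814, edgeR). With the chromosome 11 offset it was 0.35 and still passed (adjusted p = 0.0277, edgeR), as the only member of the 4 on that chromosome.

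The other polymerase genes did not pass. The catalytic subunit Pold1 was at 55.6, 63.6 and 73.5 CPM in flox/flox and at 71.1, 69.4 and 57.2 CPM in -/-, so both lines covered the same range. Pold3, Pole and Pole2 had log2 differences of 0.05, 0.13 and 0.05. Pole, the catalytic subunit of the leading-strand polymerase epsilon, was at 68.8 to 82.3 and 74.0 to 91.3 CPM. Per kilobase, Pold2 went from 24.8 ± 0.756 to 45.2 ± 5.69 CPM per kilobase (SD, n = 3), while Pold1 was at 13.2 ± 1.85 and 13.6 ± 1.56. The log2 ratio of Pold2 to the mean of the other 4 polymerase genes was 1.58, 1.34 and 1.43 in flox/flox and 2.33, 2.18 and 2.21 in -/-.

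**Figure D3:**
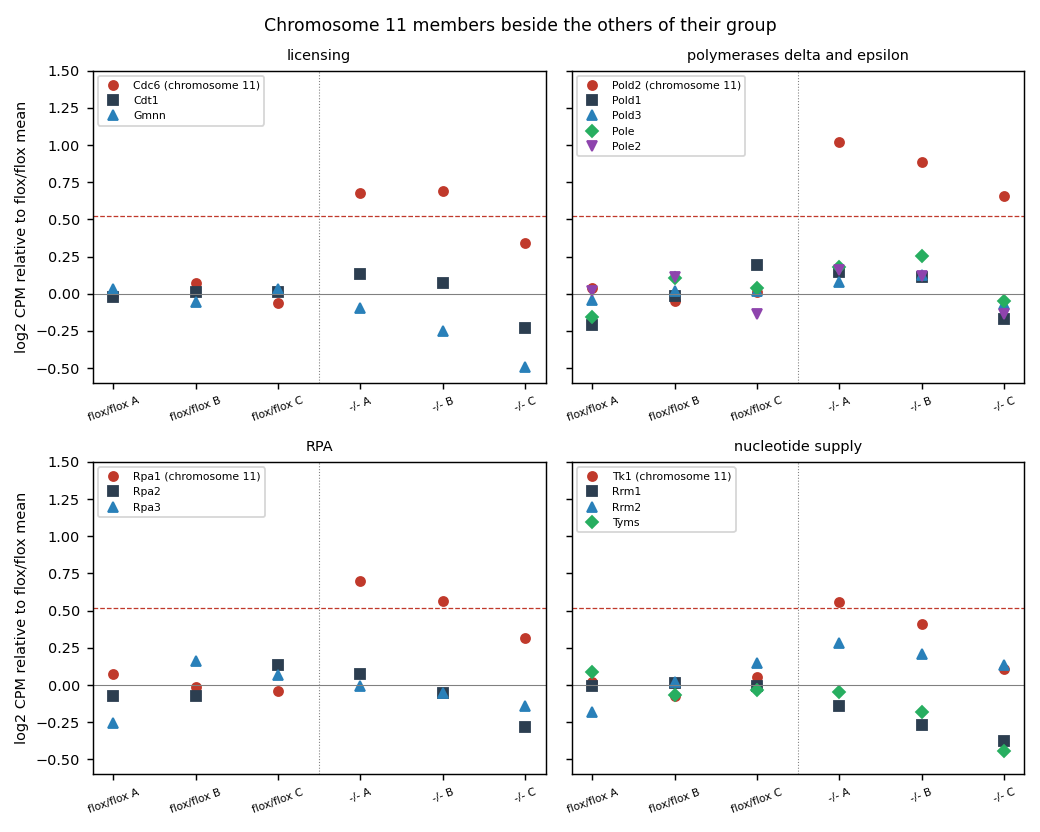
Log2 CPM relative to the flox/flox mean in each library for the 4 members on chromosome 11 (red) and the other members of their groups; the dashed line is the chromosome 11 offset of 0.52. Pold2, Cdc6 and Rpa1 lie above their partners in every library labelled -/-, and Tk1 lies above Rrm1 and Tyms there.

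Replication protein A (RPA) coats single-stranded DNA at the fork as a complex of Rpa1, Rpa2 and Rpa3, and of these only Rpa1, on chromosome 11, passed the test. Rpa1 (75298166 to 75348324, minus strand) measured 145, 137 and 134 CPM in flox/flox and 224, 204 and 172 CPM in -/-. The groups did not overlap. The difference was 0.53 ± 0.10 (log2, SE), or 1.45-fold (adjusted p = 0.00530, edgeR), and 0.02 against the chromosome 11 offset (adjusted p = 0.921). Rpa2 was at 49.7 to 57.6 CPM in flox/flox and 43.1 to 55.1 CPM in the libraries labelled -/-, and Rpa3 at 8.31 to 11.1 and 9.01 to 9.89 CPM. Their log2 differences were -0.08 ± 0.10 and -0.06 ± 0.13. The log2 ratio of Rpa1 to the mean of Rpa2 and Rpa3, per kilobase, was 1.23, 0.95 and 0.85 in flox/flox and 1.66, 1.62 and 1.53 in -/-.

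The clamp gene Pcna and the 5 genes of its loader RFC did not pass. Pcna measured 93.2, 99.2 and 102 CPM in flox/flox and 119, 104 and 95.4 CPM in -/-, with overlapping groups. More reads were counted for a processed pseudogene of Pcna on chromosome 19, Pcna-ps2, than for Pcna itself. It matches 781 of its bases at 99.2% identity and was listed at 199 to 204 CPM in flox/flox and at 190 to 238 CPM in the libraries labelled -/-. The level of Pcna taken alone is therefore uncertain. The sum of both was 298, 299 and 305 CPM in flox/flox and 357, 317 and 285 CPM in -/-, with a difference of 0.09 ± 0.08 (adjusted p = 0.442, edgeR), against 0.12 for Pcna alone.

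Rfc1, Rfc2, Rfc3 and Rfc4 had log2 differences between 0.09 and 0.19, and Rfc5 of -0.15. Rfc5 was at 54.3, 59.7 and 58.8 CPM in flox/flox and at 52.9, 51.5 and 51.1 CPM in -/-. Its groups did not overlap, but it did not pass (adjusted p = 0.0901, edgeR), nor with the reads of its pseudogene Gm12870 added (0.158). Of the enzymes that join lagging-strand fragments, the ligase gene Lig1 ran from 115 to 128 CPM and from 113 to 141 CPM, and the flap nuclease gene Fen1 from 76.7 to 86.8 and from 79.8 to 102 CPM. They did not pass with all libraries and did without -/- C (0.0424 and 0.0136). Of the exonic bases of Fen1, 84.2% lie under exons of other genes, chiefly Gm10143, so the level of Fen1 is uncertain. Gm10143 lies on the opposite strand and was counted at 72.9 to 81.9 CPM in flox/flox and 74.9 to 95.3 CPM in the libraries labelled -/-. These values were close to those of Fen1 in every library. Reads may have been counted for both genes, which was not tested.

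The genes of nucleotide supply moved in both directions. Ribonucleotide reductase, which makes deoxynucleotides, is built from the large subunit Rrm1 and the small subunit Rrm2. Rrm1 (chromosome 7, 102441695 to 102469771, plus strand) stood at 336, 341 and 337 CPM in flox/flox and 306, 280 and 260 CPM in -/-. The control libraries were nearly equal and all lay above the other line. The difference was -0.26 ± 0.07 (log2, SE), with an adjusted p of 0.0210 in edgeR. It was 0.0504, 0.0794 and 0.0523 without flox/flox A, B or C and 0.0862 without -/- B.

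Rrm2, the subunit that is made in S phase, did not fall with Rrm1 and was at 166, 191 and 208 CPM in flox/flox and at 229, 217 and 206 CPM in -/-. Its difference of 0.21 ± 0.09 did not pass (adjusted p = 0.107, edgeR), but did without flox/flox C (0.0379). The log2 ratio of Rrm1 to the mean of Rrm2 and Tyms, per kilobase, was 0.70, 0.71 and 0.61 in flox/flox and 0.40, 0.39 and 0.44 in -/-. Tk1, the thymidine salvage kinase (chromosome 11, 117815526 to 117826092, minus strand), measured 33.0, 31.0 and 33.8 CPM in flox/flox and 48.0, 43.3 and 35.1 CPM in -/-.

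The groups of Tk1 did not overlap, though -/- C was close to flox/flox C. The difference was 0.37 ± 0.11 (adjusted p = 0.0399, edgeR), and the call was lost without flox/flox A (0.0842), B (0.132) or C (0.0580), without -/- A (0.103) or without -/- B (0.109). Against the chromosome 11 offset Tk1 stood at -0.14 (adjusted p = 0.372). Tyms, which makes thymidylate from deoxyuridylate, had a log2 value of -0.21 ± 0.11 and did not pass (adjusted p = 0.172, edgeR), with 24.6 CPM in -/- C as its lowest value.

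At the entry into S phase, the transcription factor gene E2f1 and the cyclin gene Ccne2 rose, while the other cyclin E gene, Ccne1, had a negative difference that did not pass. E2f1 (chromosome 2, 154559407 to 154569892, minus strand) measured 28.6, 32.0 and 40.0 CPM in flox/flox and 43.7, 45.4 and 48.0 CPM in -/-. Unlike 44 of the 49 members, E2f1 was not lowest of its line in -/- C but highest there. The difference was 0.45 ± 0.12 (log2, SE), or 1.36-fold (adjusted p = 0.0246, edgeR). The adjusted p was 0.0576 without flox/flox A, 0.0911 without flox/flox B, 0.0672 without -/- B and 0.0569 without -/- C.

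Ccne2 measured 28.3, 29.6 and 32.3 CPM in flox/flox and 38.6, 35.1 and 35.6 CPM in -/-. All values of the line labelled -/- were above those of the control. The difference was 0.28 ± 0.08 (log2, SE), or 1.21-fold (adjusted p = 0.0262, edgeR). It was 0.0790 and 0.0932 without flox/flox A or B and 0.0751 and 0.0558 without -/- A or B. Of the exonic bases of Ccne2, 17.4% lie under exons of other genes, chiefly Ints8, so its count may include reads of that gene. Ccne1 was at 39.0, 37.3 and 39.2 CPM in flox/flox and at 35.4, 34.3 and 25.0 CPM in -/-. Its groups did not overlap, and the difference was -0.28 ± 0.13 (adjusted p = 0.126, edgeR). The difference between the responses of the cyclin E genes was not tested.

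**Figure D4:**
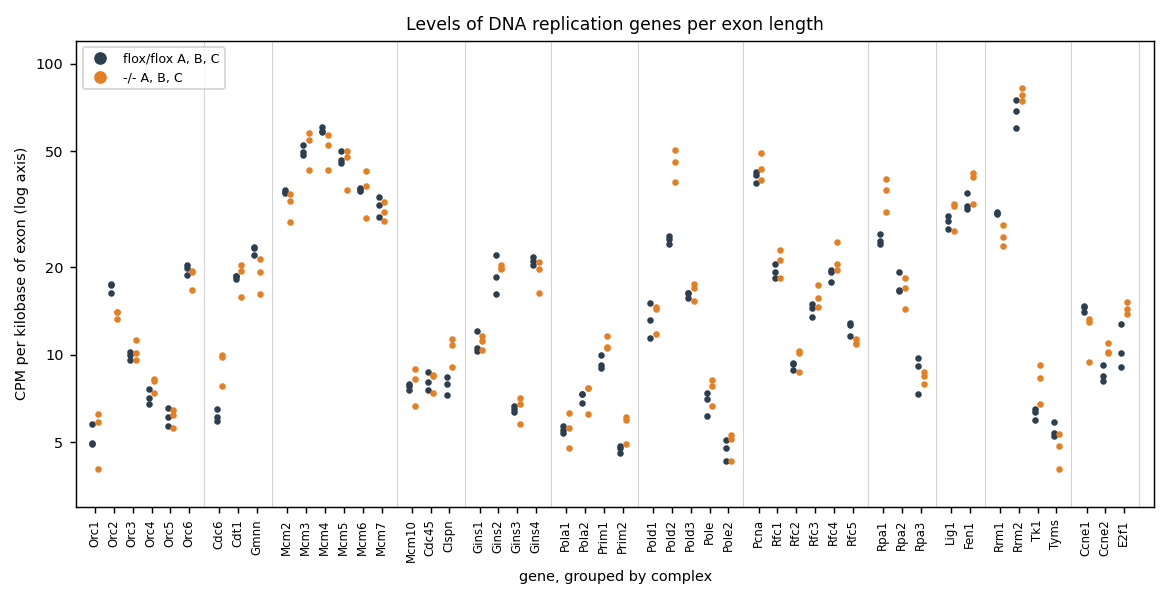
CPM per kilobase of exon (log axis) of each replication gene in the 3 flox/flox libraries and the 3 libraries labelled -/-, grouped by complex. Rrm2 is the highest, with a flox/flox mean of 68.0, the MCM2-7 genes lie at 32.4 to 59.1 and Pcna at 40.8, and Pold2, Cdc6 and Rpa1 separate by line.

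Members with E2F letters in a promoter had much the same median difference as the others. The 16 genes with such letters had a median log2 difference of 0.04, with 2 higher and 0 lower. Those higher were Clspn and Cdc6, the 1 gene of the 16 on chromosome 11. The 24 genes whose searched promoters lacked these letters had a median of 0.02, with 4 higher and 2 lower. Those higher were Pold2, Rpa1 and Tk1, the 3 of the 24 on chromosome 11, and E2f1. The only E2f1 window (154569377 to 154569676) lies inside the annotated gene, whose start is at 154569892 on the minus strand. The only Cdc6 window (98907901 to 98908200) also lies inside its gene, which starts at 98907801 on the plus strand. So do the Mcm7 windows, which reach 138172133, where the gene starts at 138172422 on the minus strand. The E2F letters counted for Cdc6 and Mcm7 thus lie inside the annotated genes. The bases before the annotated start were not searched for E2f1, Cdc6 or Mcm7. The difference between both sets was not tested.

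Other genes of replication were taken from a list of 57 that are not members. Of these 57, all tested, 6 rose and 10 fell (10.5% and 17.5%), with a median of -0.02, beside 21.3% higher and 18.7% lower among all tested genes of at least 10 CPM. All 3 on chromosome 11 rose, namely the topoisomerase gene Top2a (557 ± 12.3 to 848 ± 74.9 CPM, SD, n = 3), Atad5, which unloads PCNA (1.53-fold), and Shmt1, an enzyme of folate metabolism (1.64-fold). With the chromosome 11 offset none of these 3 passed. Off that chromosome, Dna2, a nuclease of lagging-strand processing, and the helicase gene Recql4 were 1.39-fold and 1.32-fold higher. The call for Dna2 held without any single library, while that for Recql4 was lost without flox/flox A (adjusted p = 0.0555, edgeR), flox/flox B (0.0701), -/- A (0.0525) or -/- B (0.0721). The remaining gene that rose, named after its value was seen, was Pold4, a small subunit of polymerase delta (1.54-fold), whose call was lost without flox/flox B (0.0586) or -/- B (0.0515). Pold4 was at a low level, 3.83 ± 0.41 CPM in flox/flox and 5.9 ± 0.624 CPM in the libraries labelled -/- (SD, n = 3). Of its exonic bases, 24.6% lie under exons of other genes. The genes that fell included Pole4, a small subunit of polymerase epsilon (log2 difference -0.72 ± 0.09, SE), and Samhd1, which degrades deoxynucleotides (-0.98 ± 0.15).

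Of 15 genes that control entry into and passage through S phase, 3 fell and 0 rose. The share that fell, 20%, was near the background of 18.7% among tested genes of at least 10 CPM. E2f7, a repressor among the E2F factors, went from 85.8 ± 8.13 to 51.7 ± 9.57 CPM (SD, n = 3), Rb1, the retinoblastoma gene that restrains E2F, from 109 ± 6.63 to 79.2 ± 5.41 CPM, and the checkpoint kinase gene Atr from 58.6 ± 2.44 to 46.3 ± 0.734 CPM. Their adjusted p in edgeR was 0.00627, 0.00297 and 0.00415. Of the genes of origin firing, Dbf4, the activator of the kinase Cdc7, fell by 0.29 on the log2 scale and Rif1 by 0.25, and of the histone chaperones Asf1a fell by 0.32. Dut, which removes dUTP, fell by 0.35. Of the exonic bases of Asf1a, 48% lie under exons of other genes, chiefly Mcm9, so its count may include reads of those genes. The calls for E2f7, Rb1, Atr and Asf1a held without any single library. That for Dbf4 was lost without flox/flox B (adjusted p = 0.0570, edgeR), that for Dut without -/- B (0.0659), and that for Rif1 without flox/flox A (0.0613), flox/flox B (0.101) or -/- B (0.0570).

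Genes of G2 and M phase, the next step of the cycle, rose in 4 of 20 (20%) and fell in 1 (5%), with a median of -0.07. The share that rose was near the background of 21.3% among tested genes of at least 10 CPM, and the share that fell was below its background of 18.7%. Those that rose were Birc5, Aurkb and Hmmr, which are the list's 3 genes on chromosome 11 (Hmmr was named after its value was seen), and Ccnb2 (52.5 ± 7.21 to 70.1 ± 6.53 CPM, SD, n = 3), and the mitotic kinase gene Cdk1 fell from 118 ± 1.23 to 96.9 ± 9.18 CPM. Of the 17 genes of the list on other chromosomes 1 rose and 1 fell, where 16.3% and 20% of the tested genes off chromosome 11 at that level did. With the chromosome 11 offset 1 of the 20 rose and 1 fell. The calls for Birc5 and Aurkb held without any single library. That for Ccnb2 was lost without flox/flox B (adjusted p = 0.0879, edgeR), flox/flox C (0.0515), -/- A (0.0708) or -/- B (0.0607), that for Cdk1 without flox/flox A (0.0622), B (0.0826) or C (0.0504) or -/- B (0.0770), and that for Hmmr without flox/flox A (0.0517), -/- A (0.0709) or -/- B (0.0814). The library labelled -/- C was the lowest of its line for 20 of these 20 genes, as for 44 of the 49 replication genes, and the mean log2 level of the G2/M list was 0.14, 0.05 and -0.14 in -/-.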

How the data were processed

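RNA was measured in 6 libraries of neural progenitor cells, 3 per line. The authors deposited a table of raw counts for each Ensembl gene, made with BWA 0.5.9, featureCounts 1.4.6 and mm10 (GRCm38), as the submitters' processing notes list them. Its annotation release, strand setting and handling of reads that map to several places are not stated. Columns carry a genotype and a letter while the labels carry a number, so columns were assigned to groups only. Of 48526 identifiers 48144 had a symbol in GENCODE M21.

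Genes were tested in R 4.3.3 with edgeR 4.0.16 (glmQLFit, glmQLFTest, two-sided, group only) after filterByExpr (minimum count 10, total 15) and TMM scaling. P-values were adjusted by Benjamini-Hochberg over 20549 genes, with a threshold of 0.05; "rose" and "fell" mean past it. SE and 95% intervals belong to the fitted coefficient. The SE was derived from that coefficient and its quasi-likelihood F statistic, and the interval from the SE and a t quantile. CPM per kilobase divide by the union of annotated exons. Replicate libraries differed beyond sampling noise (chi-square per gene 5.50 to 29.7). Libraries with the same column letter deviated together (correlation of residuals 0.46, 0.23 and 0.46 for A, B and C), so the letter served as a block in an alternative fit. The fit was tested on simulated data. Other alternatives were DESeq2 1.42.0, limma-voom (limma 3.58.1), other scaling and filtering, an offset for chromosome 11 and leaving out each library. Every member may be named, and of the other lists up to 3 genes per direction with the smallest adjusted p. The members and lists were chosen with earlier results of these data known.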

Additional observations from a re-analysis of the deposited data

How the results depend on the processing

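At a threshold of 0.01, 3 and 1 members rose and fell, as did 3 and 6 of the other replication genes, 2 and 0 of the G2/M genes and 1992 and 1895 of all genes. With the chromosome 11 offset, 4 members, 3 other replication genes and 1 G2/M gene rose. The offset removes the shift of that chromosome by construction, and under it Tk1 stood at -0.14 and Birc5 at 0.00. With the column letter as a replicate block, 7 members rose and 4 fell, and 4 G2/M genes rose and 2 fell; Gmnn and Mcm4 were the members whose call it changed. DESeq2, DESeq2's size factors and limma-voom each left the calls of all 49 members as they were. Leaving out 1 library at a time, 3 to 10 members rose and 1 to 4 fell, 4 to 7 of the other replication genes rose and 7 to 10 fell, 2 to 4 of the G2/M genes rose and 0 to 1 fell, 2315 to 3510 of all genes rose and 2342 to 3336 fell. Over these fits the sign turned for 18 members, none of which had passed the test. Their log2 differences ran from -0.07 to 0.23 for Orc1, from 0.00 to 0.10 for Orc3, from -0.05 to 0.06 for Orc5, from -0.07 to 0.11 for Cdt1, from -0.04 to 0.17 for Mcm3, from -0.16 to 0.06 for Mcm5, from -0.13 to 0.13 for Mcm6, from -0.12 to 0.00 for Mcm7, from -0.06 to 0.15 for Mcm10, from -0.05 to 0.08 for Cdc45, from -0.03 to 0.10 for Gins1, from -0.02 to 0.22 for Gins2, from -0.04 to 0.10 for Gins3, from -0.08 to 0.12 for Pola1, from -0.03 to 0.11 for Pola2, from -0.06 to 0.15 for Pold1, from -0.16 to 0.02 for Rpa2, from -0.17 to 0.03 for Rpa3. Scaling without chromosome 11, which moved the median of all genes by 0.03, turned Orc5 (0.02), Cdt1 (0.02), Mcm6 (0.01) positive, and so did using no filter on low counts (0.01, 0.02, 0.01 in the same order). The cause was not tested. The median level of the members in flox/flox was 14.3 CPM per kilobase of exon and 19.3 with the longest transcript as the length. The 95% intervals are for single genes and are not adjusted for the number of genes tested. Of the 40 members that did not pass, 4 had intervals that left out 0. These were Gmnn (-0.51 to -0.03), Prim1 (0.05 to 0.39), Prim2 (0.04 to 0.47) and Rfc5 (-0.29 to -0.01), and the interval of Rrm2 began at 0. With 3 libraries per line, the data could not tell differences within the intervals of the remaining members that did not pass from 0.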
